A study of Homo sapiens with 6 samples.

Results

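The 10 genes described here are those of the methionine cycle and of transsulfuration, with the enzymes that use S-adenosylmethionine for polyamines and recover the by-product. They were chosen by gene name, by a rule that uses no measured value, but with earlier results of these data known. Every probe set annotated to 1 of them was taken, which gave 26 probe sets for 10 of the 19775 genes that the array names by a probe set of their own. RNA was taken from HT29, a human colon adenocarcinoma line, as 3 samples of cells sensitive to methotrexate (MTX, an antifolate drug) and 3 of cells that grow in 10 μM MTX, the resistant cells, and each sample was hybridized to 1 HG U133 Plus 2.0 array. The resistant cells came from stepwise selection in MTX, and no source used here says whether they were 1 clone. They were kept in selective medium that lacks glycine, hypoxanthine and thymidine, with dialyzed serum, while whole serum and Ham's F12 medium were used for the sensitive cells, and resistance and medium cannot be told apart. No source used here says that the 3 samples of a group were separate cultures, so that the p-values here reflect only how far these samples spread, and that spread may be technical.

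In the methionine cycle, methionine synthase (MTR) moves a methyl group from 5-methyltetrahydrofolate to homocysteine with a cobalamin cofactor, which ties the cycle to folate. Methionine is then made into S-adenosylmethionine, the methyl donor of most methylation reactions, and the S-adenosylhomocysteine left by them is cleaved to homocysteine. Homocysteine can leave the cycle by transsulfuration towards cysteine, and S-adenosylmethionine can leave it by decarboxylation, after which each polyamine made releases methylthioadenosine, from which MTAP frees adenine for purine salvage.

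Each deposited value is a MAS5 signal on a linear scale of intensity. Dividing by the median of the array gave scaled signals, in which the median probe set of every array is at 1. Of the 26 probe sets, 21 averaged at least 1 across the 6 arrays and were tested with limma, and the other 5, among them all 3 of CBS, were not. The median correlation of an array with the others of its group was 0.97 for all 6. Colon epithelial markers summed to scaled signals of 2057 to 2271 in sensitive and 1597 to 1796 in resistant cells. Of 8 tested, 5 were lower (KRT8 at a log2 fold change of -0.77, LGALS4 at -0.71, KRT20 at -0.60, VIL1 at -0.49 and KRT19 at -0.43), CDH17 was higher and 2 did not pass, among them EPCAM at -0.01 (median -0.46), and CDX1 and GPA33 were too dim to test. Among all 11835 tested genes, 21.4% were lower and 11.9% were higher at an adjusted p under 0.05. The sum of these markers differed between the groups, and their part in the results was not tested. Of 13 markers of other cell types, 3 were above the array median on all arrays, among them lysozyme (LYZ) at 432 and 398 on average, and the other 12 summed to 9.40 to 12.3 and 6.85 to 9.90. Of the 4 that were tested, beside the same shares of all tested genes, none was higher, 3 did not pass and CD14 was lower. It was at 2.41 and 0.463 on average (log2 fold change -2.81, limma adjusted p = 0.0041), a size that rests on dim signals. Resistant replicate 2 gave the lowest of the 3 resistant signals in 14 of the 21 tested probe sets described here and in 51.3% of all tested probe sets, and after quantile normalization in 9 of the 21. Over all tested probe sets the median log2 fold change was -0.12, and -0.02 after quantile normalization, so changes relative to that median are also given.

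The promoter windows of MTAP, CTH and AMD1, the genes that differed most at their brightest probe sets, are shown so that the genes can be identified by sequence. They run from 250 bases before to 50 bases after a RefSeq start site, on the plus strand of GRCh38.p14. The windows lie at chr9:21802386-21802685 for MTAP, chr1:70411018-70411317 for CTH and chr6:110874535-110874834 for AMD1, which has other start sites as well. Capitals mark the letters of 3 motifs on either strand, wherever they lie in the window. These are CCAAT as in a CCAAT box, GGGCGG as in a GC box and TATAAA as in a TATA box.
MTAP: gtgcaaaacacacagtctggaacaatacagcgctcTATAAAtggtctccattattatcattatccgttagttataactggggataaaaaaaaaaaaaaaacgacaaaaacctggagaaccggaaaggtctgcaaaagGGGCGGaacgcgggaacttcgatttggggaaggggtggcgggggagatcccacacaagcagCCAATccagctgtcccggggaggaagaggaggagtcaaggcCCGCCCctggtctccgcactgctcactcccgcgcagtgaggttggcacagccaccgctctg
CTH: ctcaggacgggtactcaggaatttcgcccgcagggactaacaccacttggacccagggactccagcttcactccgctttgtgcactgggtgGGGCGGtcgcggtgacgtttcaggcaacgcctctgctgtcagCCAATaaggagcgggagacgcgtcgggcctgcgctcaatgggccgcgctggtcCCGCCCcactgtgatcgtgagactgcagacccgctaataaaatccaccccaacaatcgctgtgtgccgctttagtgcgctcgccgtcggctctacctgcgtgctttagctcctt
AMD1: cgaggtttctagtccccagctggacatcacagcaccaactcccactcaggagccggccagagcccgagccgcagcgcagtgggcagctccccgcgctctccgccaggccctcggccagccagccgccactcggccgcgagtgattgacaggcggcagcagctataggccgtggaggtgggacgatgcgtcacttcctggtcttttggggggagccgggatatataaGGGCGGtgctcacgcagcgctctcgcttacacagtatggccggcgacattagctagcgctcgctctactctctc
The MTAP window held 1 CCAAT, 2 GGGCGG and 1 TATAAA, the CTH window 1 CCAAT and 2 GGGCGG, and the AMD1 window 1 GGGCGG. The 9 genes that had any window had 19 in all, of which 14 held GGGCGG, 10 held CCAAT and 3 held TATAAA. Of all 35116 windows of this length, 45.0% held GGGCGG, 34.6% held CCAAT and 11.5% held TATAAA. TGATGCAA, the core of the amino acid response element, was in none of the 19 windows of these genes and in 0.866% of all windows. CACGTG, an E-box, was also in none of the 19, and in 7.26% of all. These matches describe the letters only, since the arrays measured neither binding nor methylation. Their distance from the start site was not weighed. Variants of the letters were not marked, such as the tatataa before GGGCGG in the AMD1 window.

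Resistant cells had less mRNA of MTAP and AMD1 and more of CTH, MTRR and AHCYL1, while MAT2A, MAT2B, AHCY and the brighter probe set of MTR did not pass the test. Taking each gene by its brightest probe set, 3 of the 9 tested genes were higher, 2 were lower and 4 did not pass (limma, Benjamini-Hochberg adjusted p under 0.05), where 11.9% of all 11835 tested genes were higher and 21.4% were lower. Of the 21 tested probe sets, 7 were higher, 6 were lower and 8 did not pass, against 9.52% higher and 19.5% lower among all 26833 tested probe sets. That background splits into 2554 higher and 5237 lower probe sets, and into 4189 and 4324 after quantile normalization, where 8 probe sets of the genes described here were higher and 6 lower. The 2 groups of arrays were fully separate in 13 of the 21 probe sets, which were the same 13 that passed the test, and in 42.3% of all tested probe sets. At a change of at least 3-fold, the limit used in the study, 1 probe set, of MTAP, was lower and none was higher. That limit was passed by 1.9% of all tested probe sets downwards and by 1.56% upwards. The median log2 fold change of the 9 genes was 0.11, beside -0.10 for all tested genes.

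**Figure D1:**
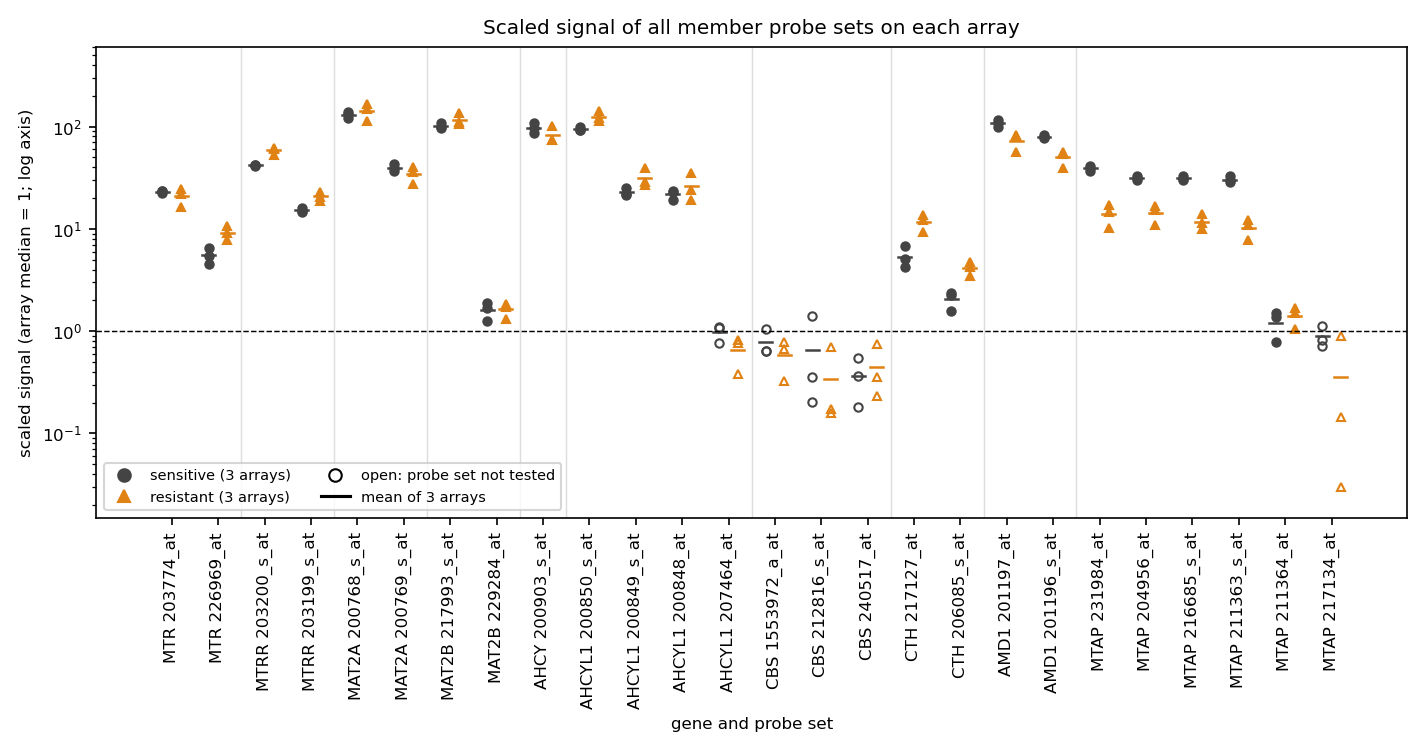
Scaled signal (log axis, array median = 1, dashed line) of the 26 probe sets on each array, with circles for the 3 sensitive arrays, triangles for the 3 resistant arrays, a bar at each mean and open symbols for the 5 probe sets that were not tested. The 4 brighter MTAP probe sets lie between 28.7 and 41.4 in sensitive and between 7.76 and 17.1 in resistant cells, and the 3 CBS probe sets lie around or under the array median in both.

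MTAP, which cleaves methylthioadenosine and so returns adenine and methionine precursors to the cell, showed the deepest fall of the 9 tested genes. Its brightest probe set, 231984_at, had scaled signals of 41.4, 39.4 and 36.7 in sensitive and of 14.5, 10.3 and 17.1 in resistant cells. No resistant array came near a sensitive one. The log2 fold change was -1.51 (standard error, SE, 0.173, limma adjusted p = 7.6e-07), or 2.86-fold lower, and -1.39 relative to all probe sets. In bulk RNA, fewer cells with MTAP mRNA and less of it in each cell cannot be told apart. The probe set 204956_at had 30.3, 31.6 and 32.5 in sensitive and 15.2, 10.8 and 16.9 in resistant cells, and fell by 1.16 on the log2 scale (SE 0.170, limma adjusted p = 2.0e-05). With 216685_s_at at -1.42 and 211363_s_at at -1.60, 4 of the 5 tested MTAP probe sets were lower, each without overlap. The fifth, 211364_at, lay close to the array median, with 1.49, 1.36 and 0.779 in sensitive and 1.68, 1.52 and 1.05 in resistant cells, and its log2 fold change of 0.25 did not pass (95% interval -0.62 to 1.12, limma adjusted p = 0.70). The remaining one, 217134_at, was too dim to test, at 0.888 ± 0.218 and 0.356 ± 0.470 (SD, n = 3 each). Only 211363_s_at passed 3-fold, at 3.02-fold, and it was under 3-fold after quantile normalization (-1.43), with no scaling (-1.55), with the median of the tested probe sets (-1.49) and with log2(scaled signal + 1) (-1.50). It was also under 3-fold without sensitive replicate 1 (-1.55) and without resistant replicate 2 (-1.41), while without resistant replicate 3 a further MTAP probe set passed, 231984_at at -1.68. The call of a fall in these 4 probe sets was lost in a two-group test with unequal variances alone (adjusted p of up to 0.15), out of 17 or 18 alternatives each. That test called 81 higher and 136 lower among all 26833 tested probe sets.

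MTAP lies on the short arm of chromosome 9, and 8 genes around it were listed as neighbours, without the interferon genes of that region. Of the 5 that were tested, 2 were lower and none was higher, with a median log2 fold change of -0.50, beside 21.4% lower and 11.9% higher among all tested genes. CDKN2A, which encodes inhibitors of cyclin-dependent kinases and of MDM2 and lies next to MTAP, had 142, 121 and 116 in sensitive and 67.6, 60.1 and 61.1 in resistant cells, and fell by 1.00 on the log2 scale (SE 0.120, limma adjusted p = 1.4e-06). The highest resistant array was well under the lowest sensitive one, and the means differed 2.01-fold. KLHL9, an adaptor of a ubiquitin ligase on the other side of MTAP, had 27.4, 25.9 and 27.2 in sensitive and 20.2, 18.0 and 15.7 in resistant cells (log2 fold change -0.59, limma adjusted p = 0.0061). That call was lost with the mean of its probe sets (adjusted p = 0.061). The methods' t-test with equal and with unequal variances also ended it (adjusted p = 0.052 and 0.15). A dimmer KLHL9 probe set was lower as well, at -0.62 without overlap (limma adjusted p = 0.015). The dimmest tested one, close to the array median, was at -0.09 and did not pass (limma adjusted p = 0.92). CDKN2B at -0.50, FOCAD at -0.43 and MLLT3 at -0.36 did not pass (limma adjusted p = 0.11, 0.074 and 0.16). HACD4, DMRTA1 and ELAVL2 were too dim to test. The copy number of this region was not measured here.

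**Figure D2:**
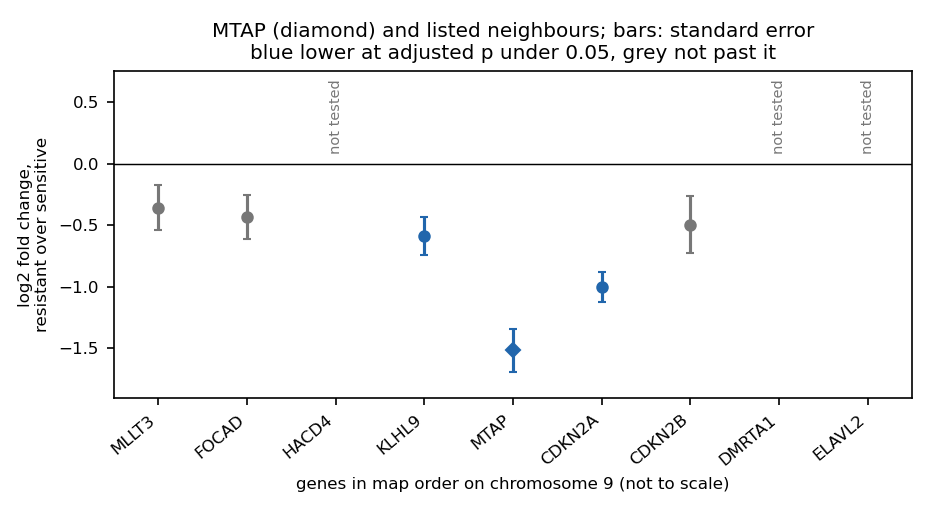
Log2 change from sensitive to resistant cells (3 arrays a group) of MTAP and its listed neighbours at their brightest probe sets, in map order on chromosome 9 and not to scale, with bars of 1 standard error (limma). MTAP at -1.51 (diamond), KLHL9 at -0.59 and CDKN2A between these values, in blue, were lower, and the 3 grey genes lie between -0.50 and -0.36.

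AMD1, the decarboxylase that commits S-adenosylmethionine to polyamine synthesis, was lower in resistant cells at both of its probe sets. The brighter one, 201197_at, had scaled signals of 115, 98.5 and 109 in sensitive and of 82.2, 56.6 and 80.4 in resistant cells. The lowest sensitive array was above the highest resistant one. The log2 fold change was -0.58 (SE 0.137, limma adjusted p = 0.0030), or 1.49-fold lower, and -0.45 relative to all probe sets. The other, 201196_s_at, had 83.2, 79.5 and 76.6 in sensitive and 53.6, 39.7 and 57.0 in resistant cells, with a log2 fold change of -0.69 (limma adjusted p = 0.00074). Without resistant replicate 2, the lowest array in both, the values were -0.40 and -0.53 and both passed. The methods' t-test with equal variances (adjusted p = 0.13 and 0.080) and the test with unequal variances (adjusted p = 0.22 and 0.18) ended both calls, and limma without the trend ended that of 201197_at (adjusted p = 0.073). Over all 26833 tested probe sets the methods' t-test called 826 higher and 1879 lower, where limma called 2554 and 5237.

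CTH, which releases cysteine from cystathionine as the last step of transsulfuration, rose about 2-fold. Its brighter probe set, 217127_at, had scaled signals of 5.03, 4.21 and 6.82 in sensitive and of 12.1, 13.6 and 9.38 in resistant cells. All resistant arrays were above all sensitive ones. The log2 fold change was 1.14 (SE 0.201, limma adjusted p = 0.00018), or 2.20-fold, and 1.26 relative to all probe sets. The other, 206085_s_at, had 2.38, 1.59 and 2.27 in sensitive and 4.71, 4.27 and 3.43 in resistant cells, with a log2 fold change of 1.00 (limma adjusted p = 0.0033). Both calls were ended by the methods' t-test with equal variances (adjusted p = 0.072 and 0.073) and with unequal variances (adjusted p = 0.12 for both), and by no other alternative.
CBS, which joins homocysteine and serine in the step before CTH, had no probe set bright enough to test. The brightest of its 3 probe sets, 1553972_a_at, had 1.05, 0.633 and 0.643 in sensitive and 0.662, 0.775 and 0.325 in resistant cells. The group means of the others, 212816_s_at and 240517_at, lay between 0.343 and 0.647, so that no level of CBS was set in either group and no change can be given. No detection calls were used here.

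MTRR, the reductase that restores the cobalamin cofactor of methionine synthase, was higher in resistant cells. The probe set 203200_s_at had 42.1, 41.4 and 42.4 in sensitive and 62.1, 53.1 and 60.0 in resistant cells, a log2 fold change of 0.47 (SE 0.130, limma adjusted p = 0.0085) and 0.59 relative to all probe sets. The sensitive arrays were within 1 unit of each other and every resistant array lay above them. The probe set 203199_s_at had 15.0, 14.7 and 15.9 in sensitive and 22.7, 18.8 and 20.7 in resistant cells, and its log2 fold change of 0.45 also passed (limma adjusted p = 0.035). That second call was lost without sensitive replicate 1, 2 or 3 (adjusted p = 0.11, 0.15 and 0.078) and without resistant replicate 3 (adjusted p = 0.075), whereas the first held without any 1 array and was lost in 2 of 18 alternatives (adjusted p of up to 0.13).

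The 2 probe sets of MTR, methionine synthase itself, differed in their calls. The brighter, 203774_at, had scaled signals of 23.2, 23.4 and 22.6 in sensitive and of 24.5, 16.4 and 21.8 in resistant cells, so that the groups overlapped. Its log2 fold change of -0.16 did not pass (95% interval -0.51 to 0.18, limma adjusted p = 0.49), and it was at 0.01 after quantile normalization. The dimmer, 226969_at, had 6.44, 4.56 and 5.47 in sensitive and 10.6, 7.77 and 9.20 in resistant cells, without overlap, and rose by 0.75 on the log2 scale (SE 0.190, limma adjusted p = 0.0049). The methods' t-test with equal and with unequal variances ended that call (adjusted p = 0.090 and 0.13). The log2 ratio of 226969_at to 203774_at within each array was between -2.36 and -1.85 in sensitive and between -1.24 and -1.08 in resistant cells, a difference of 0.91 (exact permutation test over the arrays, two-sided p = 0.10, below which 3 against 3 arrays cannot go, and 0.15 after adjustment over 3 such ratios). These 3 ratios were chosen after the values were seen. The parts of the transcript that the probe sets match were not looked up here.

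Synthesis of S-adenosylmethionine showed no change that passed. MAT2A, the catalytic subunit of the synthetase outside the liver, had 134, 138 and 121 in sensitive and 147, 113 and 168 in resistant cells at 200768_s_at, with overlapping groups (log2 fold change 0.11, 95% interval -0.16 to 0.37, limma adjusted p = 0.58). The value was -0.02 without resistant replicate 3 and -0.05 with the mean of both probe sets, since 200769_s_at was at -0.21 (95% interval -0.53 to 0.11, limma adjusted p = 0.34). The log2 ratio of the first to the second was between 1.65 and 1.82 in sensitive and between 2.03 and 2.06 in resistant cells, a difference of 0.31 (exact permutation test, two-sided p = 0.10, and 0.15 after adjustment over the 3 ratios).
MAT2B, the regulatory subunit, had 108, 97.0 and 98.0 in sensitive and 136, 105 and 110 in resistant cells at 217993_s_at. The groups overlapped in part, and the log2 fold change of 0.20 did not pass (95% interval -0.04 to 0.45, limma adjusted p = 0.21). It passed after quantile normalization (0.37, adjusted p = 0.0011) and with the median of the tested probe sets (0.30, adjusted p = 0.010). Its other probe set, 229284_at, lay between 1.25 and 1.89 on all 6 arrays, at a log2 fold change of 0.02 (95% interval -0.69 to 0.72, limma adjusted p = 0.98).

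AHCY, which cleaves S-adenosylhomocysteine, had 1 probe set, with 108, 96.2 and 86.0 in sensitive and 102, 73.6 and 73.5 in resistant cells. Resistant replicate 1 lay within the sensitive range and the other two resistant arrays below it. The log2 fold change was -0.23 (95% interval -0.51 to 0.05, limma adjusted p = 0.22), and without resistant replicate 1 it was -0.39 and passed (adjusted p = 0.020).
AHCYL1, or IRBIT, resembles AHCY in sequence but is known as a partner of the inositol trisphosphate receptor and not as a hydrolase. Its probe set 200850_s_at had 99.3, 92.9 and 92.6 in sensitive and 141, 122 and 113 in resistant cells, all resistant arrays above all sensitive ones. It rose by 0.39 on the log2 scale (SE 0.115, limma adjusted p = 0.013), and by 0.51 relative to all probe sets. 200849_s_at was at 0.45 (limma adjusted p = 0.044), and 200848_at, with 23.2, 22.8 and 19.1 against 35.1, 23.9 and 19.1, at 0.22 (limma adjusted p = 0.40). The call of 200850_s_at was lost without sensitive replicate 2 or 3 (adjusted p = 0.057 and 0.056) and with the mean of its probe sets (adjusted p = 0.075), and in all in 6 of 18 alternatives. That of 200849_s_at was lost in 8 of 17, among them without sensitive replicate 1, 2 or 3 and without resistant replicate 1 (adjusted p between 0.065 and 0.14). The log2 ratio of 200850_s_at to 200848_at within each array was higher by 0.17 in resistant cells (exact permutation test, two-sided p = 0.50, also after adjustment over the 3 ratios). With 3 against 3 arrays this test cannot go below 0.10, so none of the 3 ratios could have passed. The fourth probe set, 207464_at, was too dim to test.

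**Figure D3:**
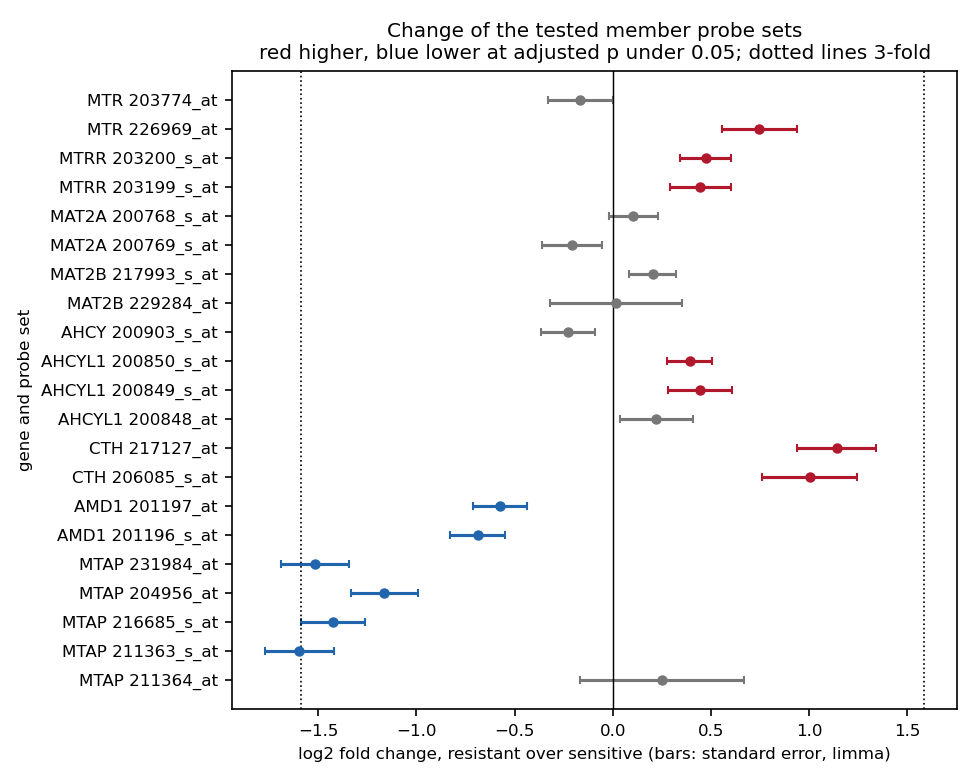
Change from sensitive to resistant cells (log2, 3 arrays a group) of the 21 tested probe sets, with bars of 1 standard error (limma) and dotted lines at 3-fold. Red probe sets were higher and blue ones lower at an adjusted p under 0.05, from 1.14 for CTH 217127_at to -1.60 for MTAP 211363_s_at, and those in grey did not pass.

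Beyond AMD1, polyamine genes moved in both directions. Of 9 tested genes 4 were lower, 2 were higher and 3 did not pass, with a median log2 fold change of -0.17, where 21.4% of all genes were lower and 11.9% higher. Spermidine synthase (SRM), which uses the product of AMD1, had scaled signals of 44.5, 34.5 and 39.1 in sensitive and of 16.9, 15.8 and 22.2 in resistant cells, a log2 fold change of -1.11 (SE 0.162, limma adjusted p = 2.0e-05). No resistant array reached the lowest sensitive one. OAZ2, an inhibitor of ornithine decarboxylase, was at -0.52 (limma adjusted p = 0.023), a call lost in 8 of 18 alternatives, among them without sensitive replicate 1, 2 or 3 or resistant replicate 3 (adjusted p between 0.058 and 0.14). The other lower genes, outside the rule for named genes and given after their values were seen, were spermine synthase (SMS) at -0.41 and AZIN1, which counters the antizymes, at -0.46 (limma adjusted p = 0.025 and 0.0083). Their calls were lost in 6 and 3 of 18 alternatives, among them limma without the trend (adjusted p = 0.16 and 0.058) and unequal variances (adjusted p = 0.26 and 0.096). That of AZIN1 was also lost with the mean of its probe sets (-0.27, adjusted p = 0.13). A further AZIN1 probe set was lower as well, at -0.53 without overlap (limma adjusted p = 0.0029), while the dimmest was at 0.17 and did not pass (limma adjusted p = 0.59). That of SMS was also lost without sensitive replicate 1 (adjusted p = 0.12) and without resistant replicate 2 (adjusted p = 0.13).
Both oxidases that break down polyamines were higher. Spermine oxidase (SMOX) had 8.06, 7.27 and 7.40 in sensitive and 24.3, 13.4 and 20.4 in resistant cells, a log2 fold change of 1.31 (SE 0.194, limma adjusted p = 2.3e-05). The resistant arrays were spread widely, all above the sensitive ones. The methods' t-test with equal and with unequal variances ended this call (adjusted p = 0.057 and 0.16). PAOX, which acts on acetylated polyamines, was at 0.61 (limma adjusted p = 0.038), a call lost in 8 of 18 alternatives, 4 of which left out 1 array each, sensitive replicate 1 or 2 or resistant replicate 2 or 3 (adjusted p between 0.071 and 0.14). Ornithine decarboxylase (ODC1), the first enzyme of the pathway, was at -0.17 and did not pass (95% interval -0.41 to 0.08, limma adjusted p = 0.31).

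Of the 5 tested enzymes that carry the product of MTAP back to methionine, 1 was higher, 1 was lower and 3 did not pass (median log2 fold change -0.08), set against 11.9% higher and 21.4% lower among all tested genes. ENOPH1, an enolase-phosphatase of this route, had 184, 174 and 185 in sensitive and 141, 120 and 139 in resistant cells (log2 fold change -0.45, limma adjusted p = 0.0024), a call lost in 3 of 18 alternatives (the methods' t-test with equal and with unequal variances and limma without the trend, adjusted p of up to 0.13). GOT1, an aspartate aminotransferase, had 31.4, 29.7 and 26.8 in sensitive and 50.7, 36.1 and 41.2 in resistant cells (log2 fold change 0.53, limma adjusted p = 0.010). That call was lost in 4 of 18 alternatives, without sensitive replicate 3 (adjusted p = 0.059) and in the same 3 tests as that of ENOPH1 (adjusted p of up to 0.18). In both genes the arrays of the 2 groups did not overlap.

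Downstream of CTH, 4 of the 9 tested genes of cysteine and glutathione metabolism were higher, 5 did not pass and none was lower, with a median log2 fold change of 0.15, where 11.9% of all tested genes were higher and 21.4% lower. Glutathione reductase (GSR) had 17.0, 16.9 and 15.1 in sensitive and 28.0, 22.8 and 27.8 in resistant cells, a log2 fold change of 0.68 (SE 0.156, limma adjusted p = 0.0023), and with the mean of its probe sets it was at 0.39 and did not pass (adjusted p = 0.073), as with unequal variances (adjusted p = 0.10). GCLC, the catalytic subunit of the enzyme that starts glutathione synthesis, was at 0.52 (limma adjusted p = 0.019), although resistant replicate 2 at 59.4 lay within the sensitive range of 53.8 to 64.1. GCLM did not pass at its brightest probe set, at -0.05 (limma adjusted p = 0.85). A dimmer GCLM probe set passed at 0.82 with overlapping groups (limma adjusted p = 0.0054), and the dimmest, at 0.20, did not (limma adjusted p = 0.42). SQOR, which oxidizes sulfide, was at 0.47 and the sulfurtransferase TST at 0.40 (limma adjusted p = 0.026 and 0.037). The calls of GCLC and TST were each lost in 8 and that of SQOR in 7 of 18 alternatives. Leaving out 1 array ended that of GCLC without sensitive replicate 2 or resistant replicate 1 or 3 (adjusted p between 0.062 and 0.11), that of TST without sensitive replicate 2 or 3 or resistant replicate 1 or 2 (adjusted p between 0.066 and 0.18), and that of SQOR without sensitive replicate 1, 2 or 3 or resistant replicate 2 (adjusted p between 0.055 and 0.12).

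NNMT, which spends S-adenosylmethionine on the methylation of nicotinamide, fell much further than any gene above. It had scaled signals of 18.6, 17.0 and 17.6 in sensitive and of 0.617, 1.09 and 0.462 in resistant cells, where it was near or under the array median. The log2 fold change was -4.71 (SE 0.257, limma adjusted p = 4.9e-12), and -3.46 with log2(scaled signal + 1), and its size rests on dim resistant signals. NNMT was the 1 lower gene of 3 tested from the rest of the methionine cycle. At their brightest probe sets AHCYL2 at 0.40 and ADK at -0.30 did not pass (limma adjusted p = 0.14 and 0.15). The dimmer probe set of ADK went the other way and passed, at 0.51 without overlap (limma adjusted p = 0.039), so the direction of ADK was not settled. MAT1A, BHMT, BHMT2 and GNMT, which belong to the cycle of the liver, were too dim to test. Of 7 tested genes of cobalamin supply, 1 was lower, 6 did not pass and none was higher (median log2 fold change -0.21), while 21.4% of all tested genes were lower and 11.9% higher. The lower one was TCN1, a secreted cobalamin carrier, with 12.5, 10.2 and 11.3 in sensitive and 4.08, 3.63 and 5.31 in resistant cells (log2 fold change -1.40, SE 0.188, limma adjusted p = 7.0e-06). Over all 6 lists, 7 of 38 tested genes were higher and 9 were lower, against 11.9% and 21.4% of all tested genes.

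**Figure D4:**
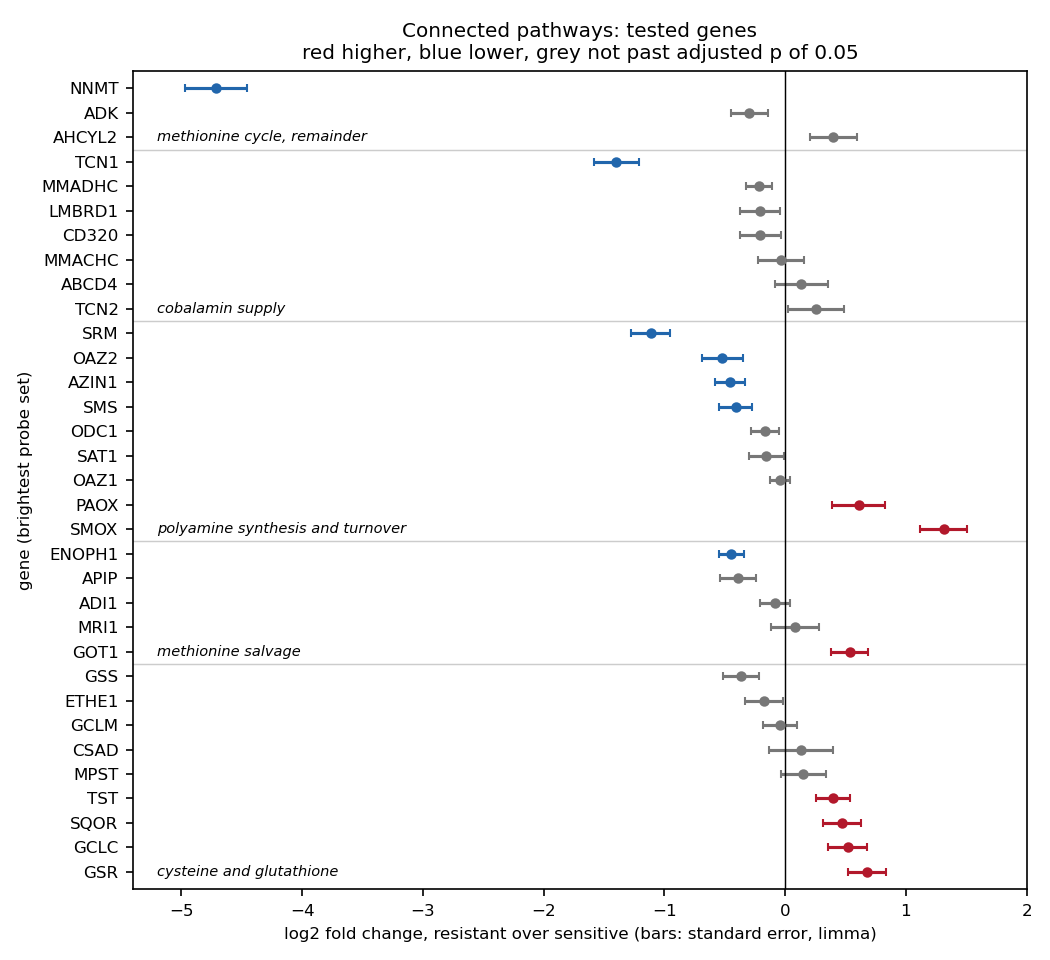
Differences between resistant and sensitive cells (log2, 3 arrays a group) at the brightest probe set of the tested genes of 5 connected pathways, grouped by list, with bars of 1 standard error (limma). Red genes were higher and blue ones lower at an adjusted p under 0.05, with NNMT at -4.71, SRM at -1.11 and SMOX at 1.31.

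**Figure D5:**
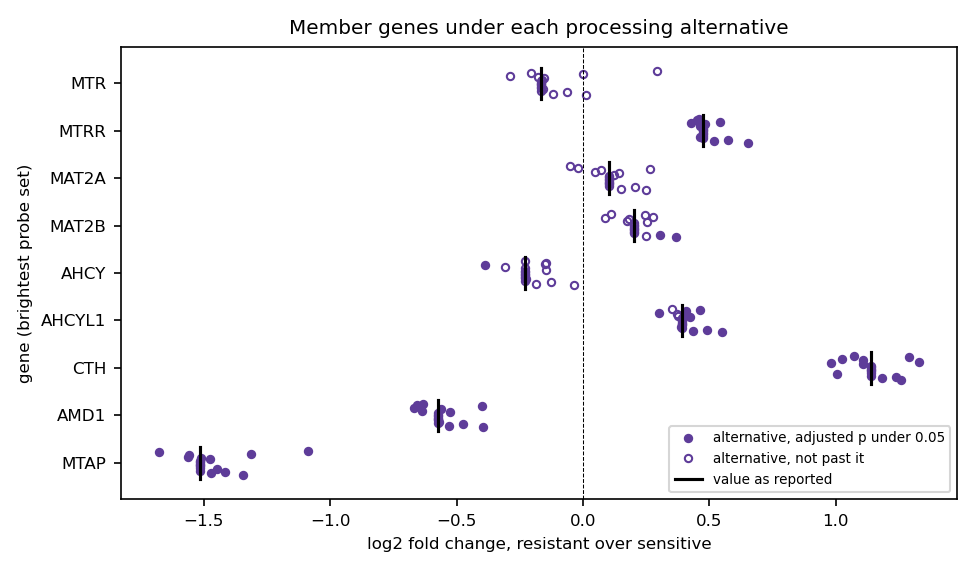
Log2 change from sensitive to resistant cells of the 9 tested genes at their brightest probe set, with a black line at the value as reported, a dot for each of 18 alternatives and filled dots where the adjusted p was under 0.05. MTAP lies between -1.68 and -1.09 and CTH between 0.98 and 1.33, while MTR and MAT2A lie on both sides of 0.

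Under the 18 alternatives, the 5 called genes kept their direction. Alternatives that changed only the test, the filter or the replicate block left these values as they were, so they could not alter a direction. The call was lost in 1 alternative for MTAP, in 2 each for CTH and MTRR, in 3 for AMD1 and in 6 for AHCYL1. Among these alternatives, the test with unequal variances called 43 of all 11835 tested genes higher and 63 lower. MTAP lay between -1.68 and -1.09 on the log2 scale, AMD1 between -0.67 and -0.40, CTH between 0.98 and 1.33, MTRR between 0.43 and 0.65 and AHCYL1 between 0.30 and 0.55. MTR and MAT2A changed sign without passing the test under any alternative.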

How the data were processed

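The values the authors deposited are MAS5 signals of 54675 probe sets on 6 arrays, an intensity on a linear scale, and no source used here gives the version of MAS5. Samples were grouped by their labels. Leaving out 62 control probe sets, 41091 had 1 gene in the platform annotation, 1801 had several and were not used for genes, and 11721 had none. Symbols were updated by Entrez identifier, and promoter sequences are those of RefSeq for GRCh38.p14.

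Signals were divided by the median of their array as in the study's methods, with a floor of 0.01, and log2 values of the 26833 probe sets with a mean of at least 1 were fitted with limma 3.58.1 (R 4.3.3) with a mean-variance trend and Benjamini-Hochberg adjustment over all of them. A gene was read from its brightest probe set. Probe sets whose names end in _s_at or _x_at can match several transcripts or related sequences. Intervals are 95% intervals from limma. Its errors borrow from other probe sets. The procedure was also run on simulated data, in which noise was independent for each probe set and no effect was shared by an array. That run does not set the error rate of the calls given here. Figures were drawn with matplotlib 3.10.9.

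The genes, lists and tests were chosen with earlier results of these data known. The rule for named genes takes the 10 members and up to 4 called genes of each list with the largest change. The lists are the rest of the methionine cycle, cobalamin supply, polyamines, methionine salvage, cysteine and glutathione, and neighbours of MTAP. Alternatives covered scaling, low signals, the filter, the test, a replicate block, each array left out and the probe sets of a gene. Neither scanner files nor dates were used, no test of batches was made, and the number of arrays limits the precision.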

Additional observations from a re-analysis of the deposited data

How the results depend on the processing

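The counts to compare are 7 probe sets of the 10 genes higher and 6 lower, 3 of these genes higher and 2 lower, none higher and 1 probe set lower by 3-fold, and 7 genes of the pathway lists higher and 9 lower. With unequal variances the two-group test gave 0 in each (at an adjusted p under 0.05, where limma gave the counts above), and the methods' t-test with equal variances gave 1 probe set higher, 1 gene higher, 1 gene lower, and 1 list gene higher and 5 lower. Limma without the trend gave 3 probe sets higher, 1 gene higher, 1 gene lower, and 2 list genes higher and 5 lower. Over all 26833 tested probe sets, the test with unequal variances called only 81 higher and 136 lower. The methods' t-test with equal variances called 826 and 1879, and limma without the trend 1821 and 3366. The probe set past 3-fold was lost (0) after quantile normalization, with deposited signals and no further scaling, with the median of the tested probe sets and with log2(scaled signal + 1), and without the filter 4 list genes were higher. With 1 array left out, 4 to 7 probe sets were higher, 6 to 7 lower and 0 to 2 lower by 3-fold, 2 to 3 genes were higher and 2 to 3 lower, and 3 to 5 list genes were higher and 7 to 16 lower. The 4 probe sets came without sensitive replicate 2 or 3, the 3 list genes without sensitive replicate 2, 4 without sensitive replicate 3 or resistant replicate 2, and the 16 without resistant replicate 1. Among all 11835 tested genes, 1406 were higher and 2535 lower with all arrays. Without resistant replicate 1 these were 1071 and 3343, and without sensitive replicate 2 they were 1056 and 1918. Same-numbered arrays of the 2 groups had deviations from the group means correlated at 0.14, 0.01 and 0.08, and 2 of 3 sensitive arrays correlated best with their own number. These values do not settle whether the numbers are pairs, and the main fit did not take them as pairs. With the replicate block 14 list genes were lower and the member counts above did not change. Over all tested probe sets the block gave 3076 higher and 6400 lower, against 2554 and 5237 without it.

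Values that changed sign, none of them past the test, were those of MTR 203774_at at 0.013 after quantile normalization and at 0.29 with the mean of its probe sets, and of MAT2A 200768_s_at at -0.051 with the mean of its probe sets. With 1 array left out, 5 probe sets changed sign. MTR 203774_at ranged from -0.29 to 0.0018 (positive without resistant replicate 2), MAT2A 200768_s_at from -0.021 to 0.26 (negative without resistant replicate 3), MAT2B 229284_at from -0.16 to 0.17 (negative without sensitive replicate 2, resistant replicate 1 or 2), AHCYL1 200848_at from -0.017 to 0.42 (negative without resistant replicate 1) and MTAP 211364_at from -0.039 to 0.45 (negative without sensitive replicate 3). The cause was not tested. Probe sets near the array median set no firm level.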
